A study of Mus musculus with 6 samples.

Results

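The circadian clock genes were followed in differentiated primary brown adipocytes of 2 genotypes. They were taken as 10 genes, Arntl, Clock, Npas2, Per1, Per2, Per3, Cry1, Cry2, Dbp and Bhlhe40, chosen by their symbols. Each was represented by its RefSeq transcript with the highest mean over the cultures, and these 10 genes stood among 12259 RefSeq genes with a tested transcript. The chromosome interval printed beside a transcript is that of its whole gene locus. All 10 passed the minimum of 0.5 RPKM (reads per kilobase of transcript, scaled to the mapped reads of the library) in the mean of the 6 cultures.

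The cells were grown from the stromal-vascular fraction of interscapular brown fat of male 129SvEvS1 mice, 5 to 6 wk old. Group WT (wildtype) held cultures 10, 11 and 12, and group Ucp1-KO (UCP1(-/-)) held cultures 13, 14 and 15, each sequenced as its own RNA library. Cells of both genotypes were induced for 2 d with dexamethasone, isobutylmethylxanthine, indomethacin, insulin, T3 and rosiglitazone. They were then kept for 7 d with insulin, T3 and rosiglitazone, with fresh medium every 2 d. Both media held fetal bovine serum. By the paper, a further change on day 7, to a medium of lower glucose, preceded all later experiments. The time from this change to harvest is not given there. The Ucp1-KO allele leaves a remnant Ucp1 transcript, which was read at 307 to 409 RPKM, against 981 to 1775 RPKM in WT. Whether the cultures came from separate animals, and the hour at which they were harvested, are not given in the sources used here, so p-values measure only the spread between these cultures, which may be technical.

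The clock of mammalian cells is a feedback loop of transcription. The proteins of Arntl (BMAL1) and of Clock or its relative Npas2 bind DNA as a pair at E-boxes and activate the Per and Cry genes, whose proteins return to the nucleus and repress the pair. A further loop runs through the nuclear receptors Nr1d1 and Nr1d2, which repress Arntl, and the receptor Rora, which activates it. Dbp, Tef and Hlf act on D-boxes, where Nfil3 represses. Brown fat carries such a clock, and cultured cells keep it, but the cells of a dish drift apart unless a stimulus such as serum, dexamethasone or a medium change sets them to a common phase. Arntl and Dbp are known to peak in opposite phases. The question addressed here was whether the genotypes differed in clock transcripts, and how far the 6 cultures lay apart in them, as cultures harvested in different phases would.

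The letters through which the clock acts on its own genes stood in the 250 bases before the transcription start of some members. RefSeq windows (GRCm38.p6) were held for 8 of the 10 genes, 12 windows in all, and no window was held for Per2 or Bhlhe40. The 3 windows below are shown because they carry the E-box of the positive limb and the D-box of the Dbp limb, with every motif found in capitals. They read 5′ to 3′ on the gene's strand.
Per3, chr4:151044666-151044915, minus strand: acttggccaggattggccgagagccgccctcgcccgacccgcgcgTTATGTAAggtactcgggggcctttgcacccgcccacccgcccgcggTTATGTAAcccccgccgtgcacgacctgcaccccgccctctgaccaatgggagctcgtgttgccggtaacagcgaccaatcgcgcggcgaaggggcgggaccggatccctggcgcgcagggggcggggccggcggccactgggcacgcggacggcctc
Cry1, chr10:85185055-85185304, minus strand: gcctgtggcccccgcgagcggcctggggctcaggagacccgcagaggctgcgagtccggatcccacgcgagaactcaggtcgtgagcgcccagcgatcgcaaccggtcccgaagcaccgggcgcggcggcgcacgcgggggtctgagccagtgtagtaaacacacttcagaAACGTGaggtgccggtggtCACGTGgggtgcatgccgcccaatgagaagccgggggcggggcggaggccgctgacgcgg
Per1, first window, chr11:69098699-69098948, plus strand: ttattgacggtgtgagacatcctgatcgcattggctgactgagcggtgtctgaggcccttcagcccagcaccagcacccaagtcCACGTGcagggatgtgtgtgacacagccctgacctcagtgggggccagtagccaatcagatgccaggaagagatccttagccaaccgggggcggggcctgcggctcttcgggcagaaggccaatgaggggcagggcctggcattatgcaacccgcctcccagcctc

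The Per3 window held 2 D-boxes (TTATGTAA), with first bases at -205 and -158 from the start. The Cry1 window held an E-box (CACGTG) at -60 and the variant E-prime box, CACGTT read on the other strand, at -79. The first Per1 window held an E-box at -166, and the Cry2 window (chr2:92434070-92434319, minus strand) an E-prime box at -166. Among all 32851 windows of that length, 6.02% held the E-box, 3.85% the E-prime box and 0.931% a D-box (TTATGTAA or TTACGTAA), both strands counted. The ROR core (TAGGTCA or TGGGTCA), held by 5.38% of all windows, and the cAMP response element TGACGTCA, held by 1.55%, were in no member's window. The windows of Arntl, Clock, Npas2 and Dbp held none of these letters. A match is a description of the sequence, and binding was not measured.

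The libraries held 14989604 to 17727653 reads, as recovered from the RPKM values, and the members were read 35 times (Npas2) to 2043 times (Clock) per culture. Adipocyte markers were abundant, with sums of 28829 to 30863 RPKM in WT and 30138 to 32050 RPKM in Ucp1-KO, Fabp4 the highest. Of the markers of other cells, those of macrophages summed to 57.3 to 181 RPKM in WT and 42.0 to 830 RPKM in Ucp1-KO (830 in culture 14), those of endothelium to 2.91 to 34.8 and 5.84 to 16.3 RPKM, and those of skeletal muscle to 2.58 to 6.34 and 2.52 to 12.6 RPKM. Stromal and preadipocyte markers summed to 744 to 1707 RPKM in WT (1707 in culture 11) and 631 to 1004 RPKM in Ucp1-KO. Of the markers with a row, 6 of 6 macrophage, 5 of 6 endothelial, 2 of 7 muscle and 9 of 10 stromal markers passed the minimum, and the muscle markers Myog, Myod1, Ckm, Myh1 and Myh4 were at 0 in some cultures but none was at 0 in all 6. Fewer cells of a type and less RNA per cell cannot be told apart in these bulk libraries.

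Clock transcripts were present in every culture and spanned a wide range of levels per length. Over the 6 cultures Bhlhe40 averaged 27.8 RPKM, Dbp 23.6, Clock 14.02, Cry2 10.4, Per3 8.98, Per1 8.39, Cry1 4.04, Arntl 3.91, Per2 2.96 and Npas2 0.753 RPKM. By mean level, 83.3% of the tested genes lay below Bhlhe40 and 4.98% below Npas2. Dbp was above Clock, Clock above Cry2, Per1 above Cry1 and Per2 above Npas2 in 6 of 6 cultures, with ranges that did not overlap. The neighbours Bhlhe40 and Dbp, Cry2 and Per3, Per3 and Per1, Cry1 and Arntl, and Arntl and Per2 had overlapping ranges.

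**Figure D1:**
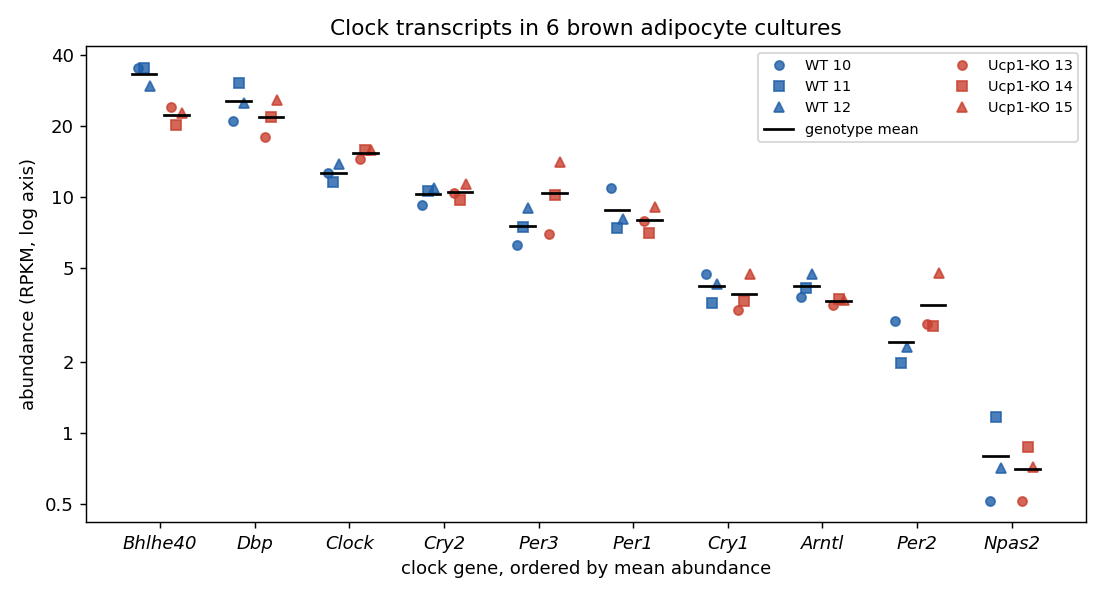
RPKM of the 10 clock genes in each culture, on a log axis; points are the 3 WT and the 3 Ucp1-KO cultures and bars the genotype means. Bhlhe40 (WT 29.4 to 35.3, Ucp1-KO 20.1 to 24.1), Clock and Arntl are the genes whose genotypes do not overlap.

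As over all transcripts, no clock gene passed the test of genotype. By limma on log2(RPKM + 1) over 16865 transcripts, the share called at an adjusted p under 0.05 was 0.0%, and 0 of the 10 members were called, also by limma-voom on recovered reads. Ucp1 itself, first of all transcripts by p with a log2 difference of -1.78, had a limma adjusted p of 0.868, so that a count of 0 says little about the members. At an unadjusted p under 0.05 stood 2 members, beside 5.54% of all transcripts. They were Clock, higher in Ucp1-KO as were 2.3% of all transcripts, and Bhlhe40, lower as were 3.24%. The genotypes did not overlap in 3 of 10 members, beside 11.2% of all transcripts. Clock was higher in Ucp1-KO, beside 6.04% of all transcripts, and Arntl and Bhlhe40 were lower, beside 5.15%. The median log2 fold change of the members was -0.08, against -0.0016 over all transcripts. All 10 intervals of 95% stayed within a log2 change of 1 either way, with -0.82 (Bhlhe40) the lowest bound and 0.95 (Per3) the highest. With 3 cultures against 3, the exact permutation test cannot give a p below 0.1.

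**Figure D2:**
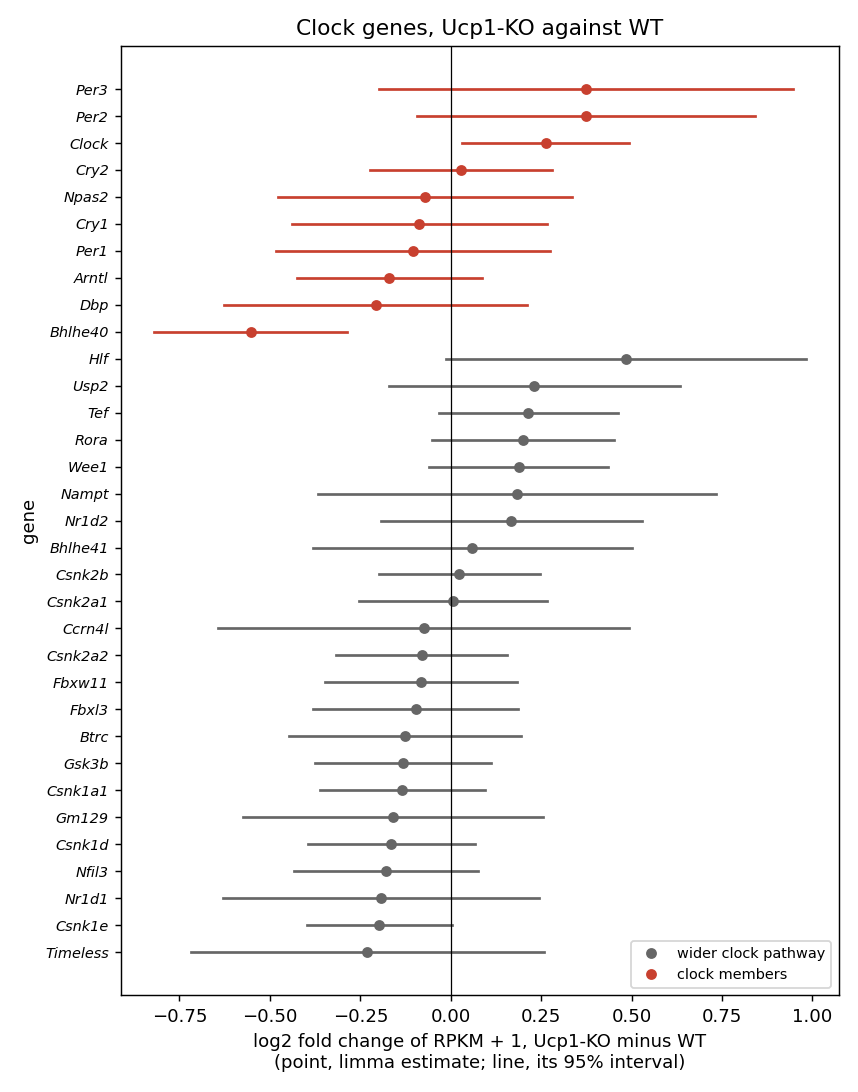
Log2 fold change of Ucp1-KO against WT for the clock genes and the wider pathway, with 95% intervals from limma on log2(RPKM + 1). Bhlhe40 (-0.55) and Clock (0.26) are the members whose interval leaves out 0.

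Among the activators of the loop, the mean of Clock was above that of WT in Ucp1-KO and the means of Arntl and Npas2 were below it. Arntl (NM_001243048, chr7:113178471-113314126), the partner without which the loop does not run, was at 3.76, 4.12 and 4.72 RPKM in WT and at 3.50, 3.68 and 3.65 RPKM in Ucp1-KO. All 3 WT cultures were above all 3 Ucp1-KO cultures, though WT 10 was close to the highest of them. The means were 4.20 ± 0.485 and 3.61 ± 0.0946 (SD, n = 3), a log2 difference of -0.17 (SE 0.11, limma adjusted p = 0.876), which was -0.10 without WT 12.

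Clock (NM_007715, chr5:76209868-76305603), the DNA-binding partner of Arntl, was at 12.6, 11.6 and 13.8 RPKM in WT and at 14.4, 15.9 and 15.8 RPKM in Ucp1-KO. Every Ucp1-KO culture was above every WT culture, the nearest being WT 12 and Ucp1-KO 13. The means were 12.7 ± 1.10 and 15.4 ± 0.807 RPKM (SD, n = 3), 121% of WT. The log2 difference was 0.26 (SE 0.10), with a limma p of 0.0319 and an adjusted p of 0.868. Without WT 10, WT 11, Ucp1-KO 14 or Ucp1-KO 15 the unadjusted limma p was 0.0648, 0.110, 0.101 or 0.0745. With the mean of all rows of the gene it was 0.143, at a log2 difference of 0.20.

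Npas2 (NM_008719, chr1:39193702-39363240), which can stand in for Clock, was the lowest member, at 0.519, 1.18 and 0.715 RPKM in WT and at 0.518, 0.874 and 0.718 RPKM in Ucp1-KO. The genotypes overlapped throughout, and WT 11 was highest. The log2 difference of -0.07 (SE 0.17, limma adjusted p = 0.958) rested on 35 to 82 reads per culture and turned to 0.073 without WT 11 and to 0.0095 without Ucp1-KO 13. Clock was 9.87 to 27.9 times as abundant as Npas2 per length.

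Of the Per genes, whose products partner the Cry proteins, Per2 and Per3 had higher means in Ucp1-KO and Per1 had not. Per1 (NM_001159367, chr11:69095108-69109965), which glucocorticoids also induce, was at 10.9, 7.36 and 8.07 RPKM in WT and at 7.93, 7.06 and 9.07 RPKM in Ucp1-KO. WT 10 was highest and the other cultures overlapped. The log2 difference was -0.10 (SE 0.16, limma adjusted p = 0.934), and without WT 10 it was 0.045, without Ucp1-KO 14 -0.026, without WT 11 -0.21 and without Ucp1-KO 15 -0.19.

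Per2 (NM_011066, chr1:91415977-91459351) was at 2.98, 1.98 and 2.32 RPKM in WT and at 2.89, 2.83 and 4.75 RPKM in Ucp1-KO. WT 10 lay above Ucp1-KO 13 and 14, and Ucp1-KO 15 stood above all others. The means were 2.43 ± 0.508 and 3.49 ± 1.09 RPKM (SD, n = 3), a log2 difference of 0.37 (SE 0.20, limma adjusted p = 0.871), which was 0.18 without Ucp1-KO 15.

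Per3 (NM_011067, chr4:150997018-151044707), whose window carried the D-boxes, was at 6.26, 7.49 and 8.95 RPKM in WT and at 6.95, 10.2 and 14.03 RPKM in Ucp1-KO. Ucp1-KO 14 and 15 were above all WT cultures and Ucp1-KO 13 was below 2 of them. The means were 7.57 ± 1.35 and 10.4 ± 3.55 RPKM (SD, n = 3), a log2 difference of 0.37 (SE 0.24, limma adjusted p = 0.876). It was 0.15 without Ucp1-KO 15 and 0.61 without Ucp1-KO 13, the latter at an unadjusted limma p of 0.0178.

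The Cry genes, the strongest repressors of the Arntl and Clock pair, had nearly level means. Cry1 (NM_007771, chr10:85131700-85185054) was at 4.70, 3.56 and 4.30 RPKM in WT and at 3.33, 3.64 and 4.73 RPKM in Ucp1-KO. The genotypes overlapped, with 1 culture of each near the top of the range. The log2 difference was -0.09 (SE 0.15, 95% interval -0.44 to 0.27, limma adjusted p = 0.940). It was -0.015 without WT 10, -0.0023 without Ucp1-KO 13, -0.052 without Ucp1-KO 14, -0.18 without WT 11 and -0.21 without Ucp1-KO 15.

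Cry2 (NM_009963, chr2:92403646-92434085) was at 9.22, 10.6 and 10.9 RPKM in WT and at 10.4, 9.70 and 11.4 RPKM in Ucp1-KO. The genotypes overlapped, and no other member varied less. The log2 difference was 0.03 (SE 0.11, 95% interval -0.22 to 0.28, limma adjusted p = 0.975), with -0.040 without WT 10 and -0.027 without Ucp1-KO 15. Its other RefSeq row, NM_001113333, gave 0.15. Cry2 was 1.96 to 3.12 times as abundant as Cry1 per length.

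Dbp (NM_016974, chr7:45705100-45710203), an output factor driven by E-boxes and among the most strongly cycling transcripts of peripheral tissues, was at 20.9, 30.3 and 25.0 RPKM in WT and at 17.9, 21.9 and 25.8 RPKM in Ucp1-KO. The genotypes overlapped, WT 11 being highest and Ucp1-KO 13 lowest. The means were 25.4 ± 4.70 and 21.9 ± 3.99 RPKM (SD, n = 3), a log2 difference of -0.21 (SE 0.18, limma adjusted p = 0.891). It was -0.078 without WT 11, -0.077 without Ucp1-KO 13, and -0.33 without WT 10 or without Ucp1-KO 15.

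Bhlhe40 (NM_011498, chr6:108660629-108666925), also called DEC1, represses at E-boxes and is induced by many signals besides the clock. It was at 35.1, 35.3 and 29.4 RPKM in WT and at 24.1, 20.1 and 22.8 RPKM in Ucp1-KO. Every WT culture was above every Ucp1-KO culture, with a gap between WT 12 and Ucp1-KO 13. The means were 33.3 ± 3.32 and 22.3 ± 2.05 RPKM (SD, n = 3), so that Ucp1-KO held 67.2% of the WT level. The log2 difference was -0.55 (SE 0.11, 95% interval -0.82 to -0.29) with a limma p of 0.00185, place 17 of 16865, and an adjusted p of 0.868. All 5 rows of Bhlhe40 over the annotations of the table were lower in Ucp1-KO, by -0.61 to -0.53 on the log2 scale. Rows of 1 gene share reads, so they add no independent evidence.

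Genes that answer to acute signals are given beside Bhlhe40, which such signals also induce. Of 14 immediate early genes, many of which rise within minutes of a stimulus, 13 were tested. Values in Ucp1-KO were higher for 4 and lower for 9. At an unadjusted limma p under 0.05, 5 stood lower (Fosl2, Jun, Junb, Jund and Ier3), beside 3.24% of all transcripts. The 4 higher were Fos (0.081), Egr2 (0.13), Atf3 (0.29) and Dusp1 (0.093), as log2 differences. The remaining lower genes were Egr1 (-0.088), Ier2 (-0.0064), Nr4a1 (-0.26) and Klf4 (-0.28). The summed level of the 14 genes was 163 to 185 RPKM in WT and 137 to 155 RPKM in Ucp1-KO. Of 10 hypoxia targets, 9 had a row and were tested, 8 with lower and 1 with higher values, and their sum ranged from 667 to 923 RPKM in WT and from 479 to 943 RPKM in Ucp1-KO. Of 9 glucocorticoid receptor targets, among them the member Per1 and the immediate early gene Dusp1, 5 had higher and 4 lower values. Their sums, 338 to 380 RPKM in WT and 296 to 361 RPKM in Ucp1-KO, were mostly Pdk4 (mean 244 RPKM over the cultures). All 9 tested stromal and preadipocyte markers had lower values in Ucp1-KO, with a median log2 difference of -0.52. The part of these genes in the Bhlhe40 difference was not tested.

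The spread of each gene over the 6 cultures, genotype difference included, was then compared. Each culture was sampled at a single time, so that neither a phase nor an amplitude was measured, and cultures of a shared phase and cultures whose cells had drifted apart cannot be told apart by a small spread. Per3, Bhlhe40 and Per2 spread most, with a log2 SD of 0.38, 0.33 and 0.32, larger than 89.1%, 84.0% and 83.6% of all tested transcripts. Dbp followed with 0.26, Per1 and Npas2 with 0.20 each, Cry1 with 0.18, Clock with 0.17, Arntl with 0.13 and Cry2 with 0.10. The members' median was 0.20 against 0.172 over all transcripts, and 7 of the 10 lay above that value. The added 1 RPKM compresses the log2 SD of low genes such as Npas2. On the linear scale the highest culture was over 2-fold above the lowest for 3 members, Per2 (2.40-fold), Npas2 (2.27-fold) and Per3 (2.24-fold), and 1.23-fold above it for Cry2. The median of this fold was 1.62 for the members and 1.48 for all transcripts.

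**Figure D3:**
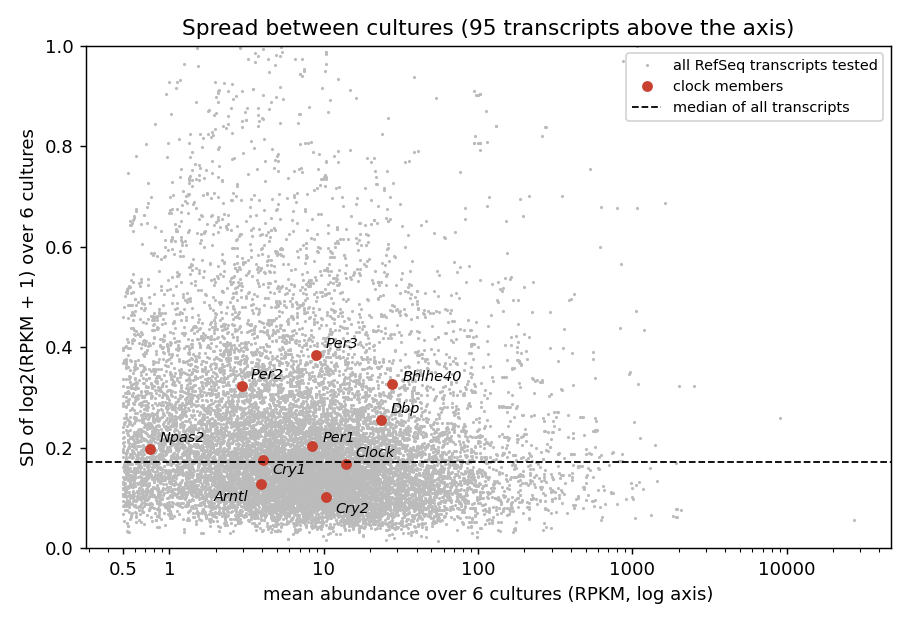
Log2 SD over the 6 cultures against mean level for all tested transcripts, with the clock genes named. Per3 (0.38), Bhlhe40 (0.33) and Per2 (0.32) lie high in the cloud, and Arntl (0.13) and Cry2 (0.10) lie low.

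The opposed pair Arntl and Dbp gave nearly level ratios in the genotypes. The log2 ratio of Dbp to Arntl, each as log2(RPKM + 1), was 2.20, 2.61 and 2.18 in WT and 2.07, 2.29 and 2.53 in Ucp1-KO, and the genotypes overlapped. The means were 2.33 ± 0.241 and 2.29 ± 0.232 (SD, n = 3), and the 6 cultures lay within a range of 0.54. The difference of the means, -0.038, ran from -0.16 (without Ucp1-KO 15) to 0.10 (without WT 11). On the linear scale Dbp was 5.10 to 7.34 times as abundant as Arntl per length.

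Of the 10 ratios computed, 4 did not overlap between genotypes, Per3 to Arntl, Clock to Npas2, Bhlhe40 to Bhlhe41 and Per1 to Per2, and no share over other gene pairs was computed to set beside this count. All of these but Per1 to Per2 hold a gene that did not overlap by itself (Arntl, Clock or Bhlhe40). The log2 ratio of Per3 to Arntl was 0.61, 0.73 and 0.80 in WT and 0.82, 1.25 and 1.69 in Ucp1-KO, so that Ucp1-KO 13 lay just above WT 12. The ratio of Per1 to Per2 was 1.58, 1.49 and 1.45 in WT and 1.20, 1.07 and 0.81 in Ucp1-KO. The ratio of Nr1d1 to Arntl, repressor to target, averaged 1.82 in WT and 1.80 in Ucp1-KO, close to level as for Dbp. The ratio of Bhlhe40 to its relative Bhlhe41 averaged 2.67 in WT and 2.06 in Ucp1-KO. These ratios are over chosen members and were given no test.

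Relations between members across the cultures were tested for 3 pairs, and none was detectable with 6 cultures. Over the 6 cultures the Pearson r of Arntl with Dbp was 0.559 (exact permutation p = 0.258) and Spearman's rho 0.486 (exact permutation p = 0.356), and r was 0.492 without WT 11 and WT 12, 0.375 within WT and 0.794 within Ucp1-KO. Arntl with Npas2, which are known to peak together, gave r = 0.339 (exact permutation p = 0.481) and rho 0.371 (exact permutation p = 0.497), with 0.211 without the same cultures, 0.220 within WT and 0.971 within Ucp1-KO. Arntl with Per3 gave r = -0.0557 (exact permutation p = 0.997) and rho -0.0857 (exact permutation p = 0.919), with 0.00835 without those cultures, 0.994 within WT and 0.787 within Ucp1-KO. Each r within a genotype rests on only 3 cultures. The r over 6 cultures takes no account of genotype, and Arntl had a lower and Per3 a higher mean in Ucp1-KO. Over these 3 relations the smallest p adjusted by Benjamini-Hochberg was 0.721 for r and 0.746 for rho. With 1 culture left out, r ran from 0.375 (without Ucp1-KO 13) to 0.826 (without WT 12) for Dbp, from 0.148 (without Ucp1-KO 13) to 0.787 (without WT 12) for Npas2 and from -0.267 (without Ucp1-KO 13) to 0.311 (without Ucp1-KO 15) for Per3. With median-of-ratios scaling it was 0.360, 0.0018 and -0.221.

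No culture held all members at a high or a low level. Ucp1-KO 15 was highest for 4 members (Per2, Per3, Cry1 and Cry2) and WT 11 for 3 (Npas2, Dbp and Bhlhe40), while Ucp1-KO 13 was lowest for 4 (Arntl, Npas2, Cry1 and Dbp). Over all 33 tested clock genes, Ucp1-KO 13 was lowest for 15, and WT 11 was highest for 11 and Ucp1-KO 15 for 10. Of all tested transcripts, 24.5% were lowest in Ucp1-KO 13, 26.8% were highest in WT 11 and 23.6% in Ucp1-KO 15. Ucp1-KO 13 was also lowest for all 9 tested hypoxia targets, and the part of this in the clock values was not tested. As deviations from each gene's mean log2 level, Ucp1-KO 15 stood at 0.64 for Per3 and 0.57 for Per2 but at -0.07 for Arntl, and WT 11 at 0.36 for Dbp and -0.38 for Per2. WT 10 was at 0.35 for Per1 and -0.41 for Per3. Per1 and Per3 thus had opposite signs in WT 10. The mean absolute log2 difference over the members was 0.247 between cultures of the same genotype (6 pairs, 0.186 to 0.313) and 0.287 between genotypes (9 pairs, 0.213 to 0.419), and over all transcripts it was 0.256 and 0.258. Bhlhe40, with the largest genotype difference of the members (-0.55 on the log2 scale), adds to the value between genotypes. The members were not compared in this way without Bhlhe40. Over all transcripts the closest pairs were WT 11 with WT 12 and, across genotypes, WT 10 with Ucp1-KO 13, each at 0.161, and the other pairs lay at 0.210 to 0.338.

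**Figure D4:**
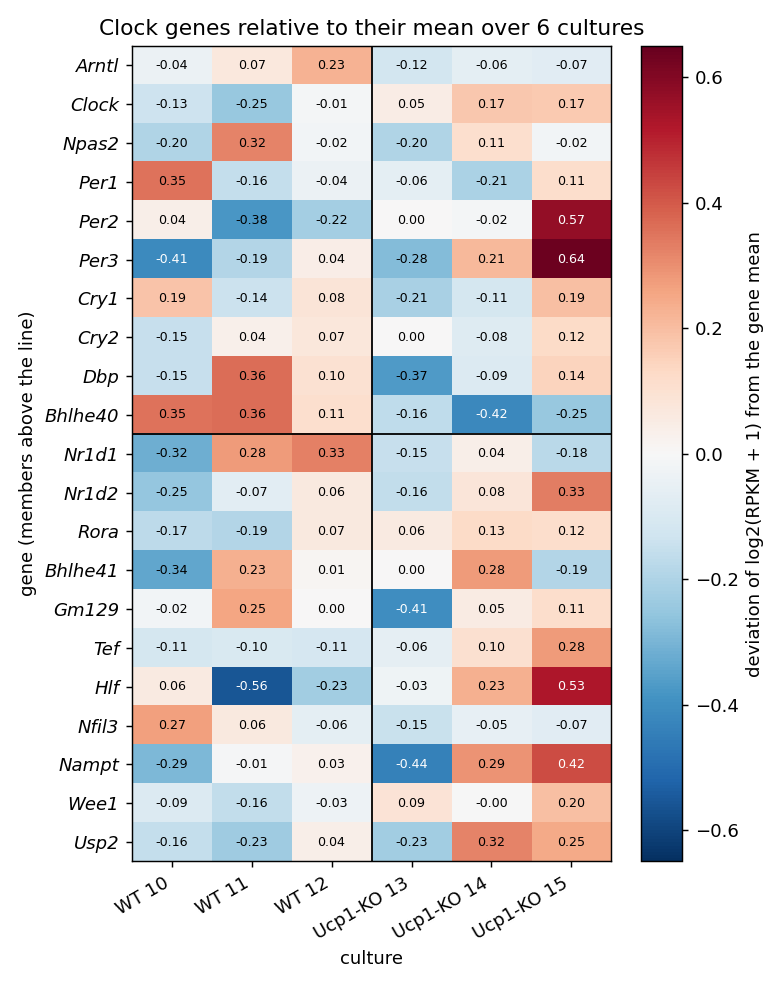
Deviation of each clock gene from its mean log2(RPKM + 1) over the 6 cultures, by culture. Ucp1-KO 15 is high for Per3 (0.64), Per2 (0.57) and Hlf (0.53), and no culture is high or low for all genes.

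The rest of the pathway, 26 genes of the loops, outputs and kinases, held no gene past the test either. Of these, 23 were tested (Rorb, Arntl2 and Fbxl21 were under the minimum), 10 with higher and 13 with lower values in Ucp1-KO, and none passed an adjusted p under 0.05 or an unadjusted p under 0.05 in limma. The limma-voom test on recovered reads put 1, Hlf, at an unadjusted p under 0.05. The genotypes did not overlap in 3 of the 23 (Tef and Wee1 higher, Csnk1e lower in Ucp1-KO), beside 11.2% of all transcripts. Their median log2 difference was -0.08.

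Nr1d1 (REV-ERBα), the main repressor of Arntl, was at 12.8, 19.8 and 20.5 RPKM in WT and at 14.4, 16.6 and 14.2 RPKM in Ucp1-KO. WT 10 was lowest, below all Ucp1-KO cultures, and the log2 difference was -0.19 (SE 0.18, limma adjusted p = 0.895). Without WT 10 it was -0.40, at an unadjusted limma p of 0.0108, and without WT 11 or WT 12 it was -0.10 or -0.077. Nr1d2 was at 7.20, 8.30 and 9.18 RPKM in WT and at 7.73, 9.28 and 11.3 RPKM in Ucp1-KO, so its values overlapped. The activator Rora was at 5.66, 5.57 and 6.85 RPKM in WT and at 6.80, 7.19 and 7.13 RPKM in Ucp1-KO, with only WT 12 reaching the Ucp1-KO range.

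Among the factors that act on D-boxes, Tef was at 23.3, 23.6 and 23.4 RPKM in WT and at 24.3, 27.2 and 30.9 RPKM in Ucp1-KO. The WT cultures hardly differed and all lay below Ucp1-KO, with a log2 difference of 0.21 (SE 0.10, limma adjusted p = 0.871), which was 0.13 without Ucp1-KO 15. Hlf, at 1.18, 0.423 and 0.787 RPKM in WT and 1.05, 1.45 and 2.01 RPKM in Ucp1-KO, had a log2 difference of 0.48 (SE 0.21, limma adjusted p = 0.868), or 0.97 by limma-voom on recovered reads. WT 10 lay above Ucp1-KO 13 there, and Ucp1-KO 15 was highest for both genes, as it was for Per2 and Per3. Nfil3, the repressor at D-boxes, was at 24.6, 21.2 and 19.4 RPKM in WT and at 18.2, 19.5 and 19.2 RPKM in Ucp1-KO. Ciart, a repressor of the Arntl and Clock pair listed as Gm129, was at 1.18, 1.63 and 1.21 RPKM in WT and at 0.666, 1.29 and 1.39 RPKM in Ucp1-KO, with overlapping values.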

How the data were processed

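RNA of the 6 cultures was sequenced as single reads, and the authors deposited RPKM, made with the Genomatix Mining Station from unique alignments to GRCm38 (NCBI build 38) and given per transcript of several annotations, 168326 rows. The version of the mapper is not given in the sources used here. RPKM is scaled by transcript length and library total, and a rise in a few abundant transcripts lowers all others. From the deposited RPKM, 28890 RefSeq rows were taken, and 16865 with a mean of at least 0.5 RPKM were tested with limma 3.58.1 (R 4.3.3, eBayes with trend, Benjamini-Hochberg) on log2(RPKM + 1), Ucp1-KO against WT. A fold change on this scale understates the change of low genes. Exact permutation tests were 2-sided.

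Totals per library were recovered from the steps of the RPKM values, with GENCODE M21 transcript lengths. Of the values of Ensembl transcripts, 93.378% came out within 0.05 reads of a whole number, and limma-voom on the recovered reads was an alternative. RefSeq lengths were searched for until reads were whole, so those of RefSeq rows are whole by construction. Precision is limited by 3 cultures per genotype. Promoter windows were searched on both strands. Scripts were tested on simulated data.

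The members, the lists and the rule for named genes (all members, 7 wider pathway genes, side list genes by level and the genes most like Arntl and Dbp) were chosen with earlier results of these data known. Immediate early genes named in the text were picked by their p. Alternatives were another added value, no minimum, median-of-ratios scaling, each culture left out, 1 transcript per gene, another RefSeq row of a gene, all annotations, the mean of all rows of a gene and limma-voom. A planned gene of the wider pathway list is not reported here.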

Additional observations from a re-analysis of the deposited data

How the results depend on the processing

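No paired analysis was possible because the genotypes share no replicate number (10 to 12 and 13 to 15). The members gave 133 log2 fold changes under the alternatives, of which 5, in 3 members, changed sign, each with 1 culture left out. Those of Npas2 then ran from -0.19 to 0.073 (above 0 without WT 11 or Ucp1-KO 13), of Per1 from -0.21 to 0.045 (without WT 10) and of Cry2 from -0.040 to 0.077 (below 0 without WT 10 or Ucp1-KO 15). The wider pathway gave 299, of which 10 changed sign, each with 1 culture left out. The ranges with 1 left out were -0.093 to 0.19 for Bhlhe41, -0.26 to 0.0037 for Gm129, -0.067 to 0.10 for Csnk2a1, -0.026 to 0.075 for Csnk2b and -0.31 to 0.093 for Ccrn4l. The r of Arntl with Per3 became 0.00835 without WT 11 and WT 12, the 2 cultures farthest from the median of Arntl, and ran from -0.267 to 0.311 with 1 left out.

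Members at an unadjusted limma p under 0.05 numbered 2, and 1 to 3 with 1 culture left out (1 without WT 10, WT 11, Ucp1-KO 14 or 15, and 3 without Ucp1-KO 13), and 1 with the mean of all rows of a gene, without Clock. Bhlhe40 stayed under 0.05 in all alternatives, with log2 differences of -0.64 to -0.48 when 1 culture was left out. For all transcripts this count was 935, with 317 (without WT 11) to 1754 (without WT 10) when 1 was left out, 1456 with no minimum and 5193 with all annotations, where more rows were tested. At an adjusted p under 0.05 it was 0, and 22 with no minimum. Wider pathway genes at an unadjusted p under 0.05 numbered 0, with 0 to 4 when 1 was left out (Tef, Hlf, Usp2 and Nampt without Ucp1-KO 13), and 1 with no minimum (Csnk1e), with the mean of all rows (Tef) and with limma-voom (Hlf). The cause of these changes was not tested. Among the members, Npas2 had the fewest reads, 35 to 82 per culture.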

Other observations

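Genes most like Arntl and Dbp over the 6 cultures were sought among those with higher levels, which leaves out the low clock genes. Of 7519 genes with a mean of at least 5 RPKM, those with the highest Pearson r with Arntl were Dph6 (0.983), Slc37a3 (0.971), Cul4a (0.967), Tab1 (0.966) and Adi1 (0.965). With Dbp, among 7518 genes, they were Aga (0.997), Smu1 (0.991), Cdk4 (0.988), Yipf4 (0.987) and Mpg (0.987). In the order of likeness to Arntl, Nr1d1 stood at place 282, Dbp at 1571, Bhlhe40 at 2060, Cry2 at 2991 and Clock at 6011. The points share 6 libraries, and the values are a description.

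The rows of the other annotations gave the members the same sign as the RefSeq row, except for Cry2. All 9 rows of Clock were higher in Ucp1-KO, by 0.01 to 0.26 on the log2 scale, and 1 was at an unadjusted limma p under 0.05. All 12 rows of Per3 were higher, by 0.26 to 0.55, and 1 was at an unadjusted limma p under 0.05. All 4 rows of Arntl, all 7 of Dbp and all 8 of Per1 were lower. These rows share reads and are not independent.

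Nampt, which makes NAD and is a target of the clock, was at 83.1, 101 and 104 RPKM in WT and at 74.9, 125 and 137 RPKM in Ucp1-KO. Ucp1-KO 13 was thus lowest and Ucp1-KO 15 highest. Among the members only Cry1 had the same lowest and highest cultures. Dbp was highest in WT 11, and Per3 was lowest in WT 10. The hypoxia targets Vegfa, Egln3, Bnip3 and Ankrd37 also had the lowest and highest cultures of Nampt, and the cause was not tested.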
